A study of Saccharomyces cerevisiae with 24 samples.

Results

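In budding yeast, Saccharomyces cerevisiae, chromatin immunoprecipitation read out on microarrays (ChIP-chip) was used to map where splicing factors sit on genes while they are transcribed. This report sets the branch point binding protein, BBP, against its partner Mud2, gene by gene. These are 2 of the 24 columns of the series, chosen by their titles and not by any measured value. The BBP strain carried a triple HA tag (3HA) at the C terminus of the protein, and the Mud2 strain a 13-fold myc tag (13myc), each at its own locus. The BBP column combined 4 biological replicates and the Mud2 column 3. Cells for Mud2 were grown vegetatively in rich medium to an optical density of 0.6, while no growth condition is given for BBP and no strain background for either. A further column of Mud2-13myc, from 3 replicates grown in the same way, was cross-linked for a shorter time and served the study as the untreated control of an RNase experiment. It is called the short-fixation Mud2 column here and was used as a second look at Mud2. The other columns set beside them hold Prp40, Lea1, Prp11, Prp5, Spt5 and RNA polymerase II in unperturbed cells. Some statements also use Prp2, Brr2 and Sub2 in unperturbed cells, Prp40-3myc in cells grown in SC-URA medium and treated with 6-azauracil, an inhibitor of transcription elongation, and Mud2-13myc from extract treated with RNase.

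An intron is recognised early by proteins that bind 3 places: the 5' splice site, the branch point and the 3' splice site. In yeast BBP, the product of MSL5, binds the branch point sequence, and Mud2, related to the large subunit of human U2AF, binds next to it and contacts BBP. BBP also meets the U1 snRNP protein Prp40, which bridges the ends of the intron, and both BBP and Mud2 leave when the U2 snRNP pairs with the branch point. MSL5 is essential and MUD2 is not. Few yeast genes have an intron, but the ribosomal protein genes, many of which do, are among the most strongly transcribed genes of a growing cell.

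A column gives every open reading frame on the array 1 log2 ratio, most likely immunoprecipitate over whole-cell extract. Since replicates had been combined before deposit, no spread between them, no SD and no p-value could be had, and every statement below describes 2 columns, with a number of arrays that limits their precision. The scales differed: the robust SD of intronless genes was 0.19 for BBP and 0.64 for Mud2 on the log2 scale, a ratio of 3.32 with Mud2 over BBP. For that reason a gene's value was given as its percentile, the percent of intronless genes of the same column that lie below it, and as a scaled value, its distance from the intronless median in robust SDs. A gene was called high in a column when it exceeded the 95th percentile of intronless genes, which was a log2 ratio of 0.33 for BBP and 1.55 for Mud2. Of 5674 genes used, 231 were on a list of intron genes and 5398 were intronless, and the other 45 were placed in neither class. Both columns had a value for 229 intron genes, 89 for ribosomal proteins and 140 for other proteins, and for 5368 intronless genes. The genes of the tagged proteins, both intronless, were not high: MSL5 stood at a log2 ratio of 0.21 for BBP and -0.18 for Mud2, and MUD2 at 0.07 for BBP and -0.18 for Mud2. The sources used here do not give the direction of the Mud2 ratio, and it is not settled. Over all probes the Mud2 column had a Pearson correlation of -0.34 with 1 other column, Prp40 under 6-azauracil. With several other columns it ran the positive way, at 0.45 with BBP, 0.37 with Prp40, 0.36 with Spt5 and 0.29 with the short-fixation Mud2 column. The lowest correlation of BBP with any other column was -0.06, with the same 6-azauracil column. Values are printed as deposited, and results with the Mud2 sign turned are given after the main comparison.

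BBP and Mud2 met on the intron genes of ribosomal proteins. Of these 89 genes, 80 were high in both columns, 5 in BBP alone, 0 in Mud2 alone and 4 in neither. The sharing depends on the threshold: at the 99th percentile 33 of all 229 intron genes were high in both and 59 in BBP alone, against 93 and 33 at the 95th. The median log2 ratio of the 89 genes was 0.93 for BBP and 2.26 for Mud2, which corresponds to a median percentile of 99.8 for BBP and 98.5 for Mud2 and to a median scaled value of 4.90 for BBP and 3.79 for Mud2. Over all 5597 intron and intronless genes, the share called high was 6.97% for BBP and 6.7% for Mud2, the share high in both 2.39%, in BBP alone 4.57% and in Mud2 alone 4.31%. The 140 other intron genes held 13 genes high in both, 28 high in BBP alone, 13 high in Mud2 alone and 86 in neither. Their median log2 ratio was 0.18 for BBP and 0.48 for Mud2, at a median percentile of 82.6 for BBP and 80.0 for Mud2. Among the 5368 intronless genes 41 were high in both, 223 in BBP alone, 228 in Mud2 alone and 4876 in neither. Shared genes were thus 94.1% of the BBP-high and all of the Mud2-high genes in the ribosomal protein group. They were 31.7% of the BBP-high genes and 13 of 26 Mud2-high genes among other intron genes, against 15.5% of the BBP-high and 15.2% of the Mud2-high among intronless genes.

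**Figure D1:**
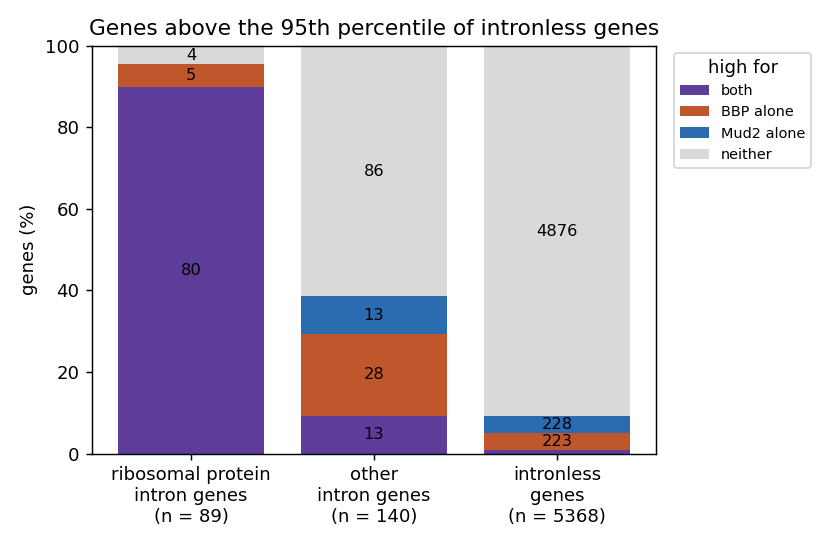
Stacked bars give the percent of genes in each class that lay above the 95th percentile of intronless genes for both proteins, for BBP alone, for Mud2 alone or for neither, with gene numbers inside the larger segments. The shared segment holds 80 of 89 ribosomal protein intron genes, 13 of 140 other intron genes and 41 of 5368 intronless genes.

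With the sign of the Mud2 column turned, the high genes of the columns part. No intron gene would then be high in both, 126 would be high in BBP alone and 2 in Mud2 alone, and 4 intronless genes would be high in both. The median Mud2 percentile would be 1.54 for ribosomal protein intron genes and 20.01 for other intron genes. A single gene's turned Mud2 percentile is 100 minus the one printed. The short-fixation Mud2 column, in its deposited direction, put ribosomal protein intron genes at a median percentile of 99.7. It ran with the Mud2 profile, with a Spearman's rho of 0.67 over the 229 intron genes. Prp40, as deposited, placed the 80 ribosomal protein intron genes high in both at a median percentile of 99.9. Prp40 under 6-azauracil placed the same 80 genes at 42.7. Which direction of the Mud2 ratio is right was not tested.

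RPS13, which codes for a small-subunit protein, was among the highest genes of both columns, with a log2 ratio of 1.84 for BBP and 3.55 for Mud2. RPS22B, a small-subunit gene that hosts a snoRNA in an intron, had 1.36 for BBP and the highest intron-gene value of the Mud2 column, 4.15. The large-subunit gene RPL18B had 1.54 for BBP and 3.18 for Mud2. These 3 genes had scaled values above those of the median ribosomal protein intron gene in both columns. RPL39 stood at 1.26 for BBP and 3.17 for Mud2, RPL28 at 1.46 for BBP and 3.02 for Mud2, and RPS16A at 1.29 for BBP and 2.91 for Mud2. RPS10B had 0.85 for BBP and 3.74 for Mud2, RPS23A 1.01 for BBP and 2.93 for Mud2, and RPS27B 1.26 for BBP and 2.85 for Mud2. These genes were among the 10 intron genes with the best lower-of-both rank, and all 10 code for ribosomal proteins. The short-fixation Mud2 column, in which 7.18% of all genes were high, had 79 of the 80 shared genes high. The exception was RPS18A, with 1.19 for BBP, 2.40 for Mud2 and -1.96 in that column. It stood at percentile 0.09 there but at 99.6 in the Mud2 column from extract treated with RNase. Its short-fixation value is therefore uncertain, and the cause was not tested. The U2 snRNP proteins Lea1 and Prp11 and the ATPase Prp5, which acts when that snRNP joins, placed the 80 genes at median percentiles of 99.4, 99.8 and 99.8. In the Mud2 column from extract digested with RNase before precipitation, the partner of the short-fixation column, their median percentile was 50.9. The order within the group was not the same in both columns. RPL32, the gene with the highest BBP value at 1.91, had 2.70 for Mud2, and RPL35B had a scaled value of 7.84 for BBP but 3.65 for Mud2, near the group's Mud2 median of 3.79. RPS17A showed the opposite lean, with 0.74 for BBP and 3.26 for Mud2. Across the 89 genes Spearman's rho between the columns was 0.51 and Pearson's r 0.66. Across other intron genes rho was 0.45 and across intronless genes 0.39. Genes are not independent replicates, the columns share the array and the kind of extract DNA, and these values describe the columns without a p-value.

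**Figure D2:**
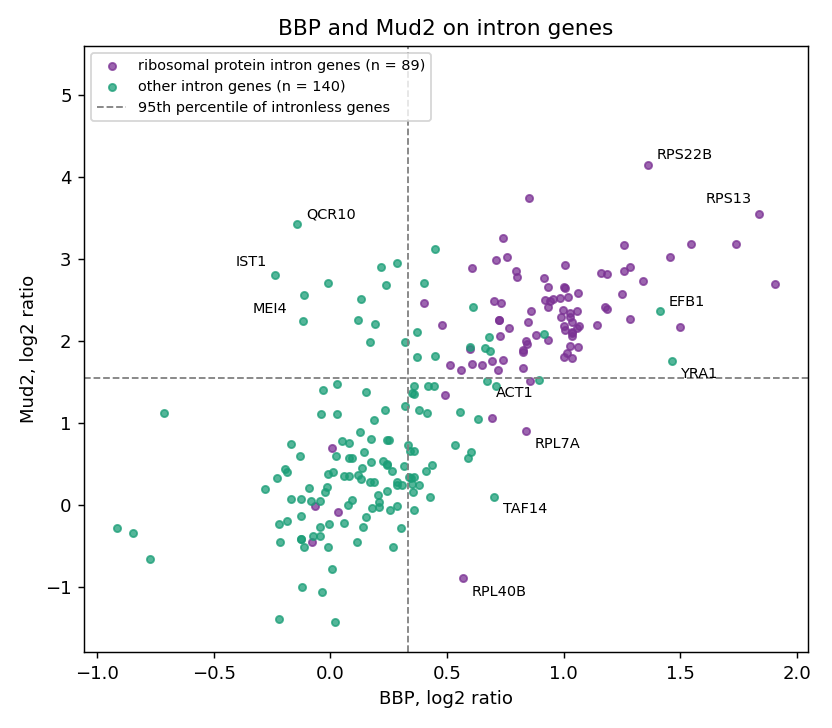
Each point is an intron gene, with the BBP log2 ratio on the horizontal axis and the Mud2 log2 ratio on the vertical axis; dashed lines mark the 95th percentile of intronless genes, at 0.33 for BBP and 1.55 for Mud2. Of the 89 ribosomal protein genes 80 lie in the upper right field, while other intron genes spread over all 4 fields.

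The 9 exceptions within the ribosomal protein group could each be set beside a paralogue that was high in both. RPL40B, which codes for a ubiquitin fused to a ribosomal protein, had 0.57 for BBP and -0.89 for Mud2, at a percentile of 98.7 for BBP and 9.57 for Mud2. It lies on the chromosome arm YKR, as does RPS21A, and Mud2 values on that arm are uncertain. Its paralogue RPL40A had 1.01 for BBP and 2.65 for Mud2. The low Mud2 value of RPL40B was not seen in the short-fixation Mud2 column, where the gene stood at percentile 99.5. RPL7A had 0.84 for BBP and 0.90 for Mud2, against 0.99 for BBP and 2.29 for Mud2 at RPL7B. RPS4B, RPL17B and RPS21A missed the Mud2 threshold with Mud2 percentiles of 94.7, 90.8 and 93.5, beside BBP percentiles of 99.7, 99.4 and 98.2. All 5 genes were high in the short-fixation Mud2 column. The 4 genes below both thresholds were RPS30A with -0.08 for BBP and -0.45 for Mud2, RPS19A with -0.07 for BBP and -0.01 for Mud2, RPL43B with 0.03 for BBP and -0.09 for Mud2, and RPL31B with 0.01 for BBP and 0.70 for Mud2. Each of their paralogues was high in both: RPS30B had 0.71 for BBP and 2.98 for Mud2, RPS19B 0.88 for BBP and 2.07 for Mud2, RPL43A 0.48 for BBP and 2.20 for Mud2, and RPL31A 1.03 for BBP and 1.93 for Mud2. The short-fixation Mud2 column had 0 of the 4 genes below both thresholds high, at a median percentile of 38.7, and Prp40 had 2 high. RNA polymerase II placed these 4 at a median percentile of 40.3, against 90.8 for all 89 genes. The paralogues of yeast ribosomal protein genes are near-identical in coding sequence, so a spot can also catch DNA of the other copy, and a value is uncertain to that extent. Whether such a share differed between spots was not tested.

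By rank, BBP stood higher than Mud2 at 79 of the 89 ribosomal protein intron genes, with a median percentile difference (BBP minus Mud2) of 1.06. Over all genes the BBP percentile was the higher one in 51.8%. On the scaled values BBP was higher at 74 of the 89, with a median difference of 1.13 robust SDs, where 48% of all genes had the higher scaled value for BBP. The ribosomal protein genes lie so close to the top of both columns that a difference of 1 percentile separates them. When each gene was ranked among intronless genes with a similar RNA polymerase II value, the median difference was -0.36, so this lean towards BBP had no settled direction. For other intron genes BBP had the higher percentile at 77 of 140 and the higher scaled value at 63 of 140. Their median differences were 1.78 percentiles and -0.15 robust SDs, again of no settled direction.

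The 13 other intron genes high in both columns included genes of translation, RNA handling and the cell surface. EFB1, which codes for a guanine exchange subunit of translation elongation factor eEF1, had 1.41 for BBP and 2.36 for Mud2. YRA1, the gene of an mRNA export adaptor, had 1.46 for BBP, the highest BBP value among the 140 other intron genes, and 1.75 for Mud2. ECM33, for a cell wall glycoprotein, had 0.92 for BBP and 2.08 for Mud2. COF1, for the actin-severing protein cofilin, had 0.69 for BBP and 1.87 for Mud2. It lies on the chromosome arm YLL, where Mud2 values are uncertain. RPO26, for a subunit shared by the nuclear RNA polymerases, had 0.61 for BBP and 2.42 for Mud2. TAN1, needed for a cytidine modification of tRNA, leaned to Mud2 with 0.45 for BBP and 3.13 for Mud2. These 6 genes therefore cover BBP percentiles between 97.8 and 99.9, and Mud2 percentiles between 96.1 and 99.8. The remaining shared genes were ASC1, KEI1, LSM7, SFT1, SMD2, STO1 and YOP1. Of all 13, 9 were also high in the short-fixation Mud2 column.

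Intron genes that host a snoRNA numbered 8, and all 8 were high for BBP while 4 were high for Mud2, each of the 4 shared. ASC1, for a ribosome-associated scaffold protein, was shared with 0.45 for BBP and 1.82 for Mud2, as were EFB1, RPS22B and RPL7B. TEF4, for another eEF1 subunit, lay just below the Mud2 threshold with 0.90 for BBP and 1.53 for Mud2. NOG2, for a nuclear GTPase of ribosome assembly, had 0.44 for BBP and 1.45 for Mud2, and IMD4, for an enzyme of guanine nucleotide synthesis, 0.38 for BBP and 1.15 for Mud2. In the short-fixation Mud2 column all 8 hosts were high.

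The 15 measured intron genes of RNA processing and export had a median percentile of 94.3 for BBP and 92.4 for Mud2, with 7 high for BBP, 6 for Mud2 and 5 for both. STO1, the large subunit of the nuclear cap-binding complex, had 0.37 for BBP and 2.11 for Mud2. SMD2, a core protein of the spliceosomal snRNPs, had 0.40 for BBP and 2.70 for Mud2, and LSM7, of the ring on U6 snRNA, 0.68 for BBP and 2.05 for Mud2. LSM2, of the same ring, was high for Mud2 alone with 0.22 for BBP and 2.91 for Mud2. The helicase gene DBP2 was high for BBP alone with 0.63 for BBP and 1.05 for Mud2, as was NMD2, which acts in nonsense-mediated decay, with 0.41 for BBP and 0.41 for Mud2. MUD1, for a U1 snRNP protein, lay just below both thresholds with 0.32 for BBP and 1.21 for Mud2. In this group the partners thus shared 71.4% of the BBP-high genes and 83.3% of the Mud2-high genes.

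Of 12 cytoskeleton genes with an intron, 4 were high for BBP and 1, COF1, whose Mud2 value is uncertain, for Mud2. ACT1, actin, had 0.67 for BBP and 1.52 for Mud2, just short of the Mud2 threshold at percentile 94.8. PFY1, profilin, had 0.42 for BBP and 1.45 for Mud2, and ARP2, of the complex that branches actin filaments, 0.60 for BBP and 0.64 for Mud2. The tubulin gene TUB1 was high in neither, with -0.02 for BBP and 0.15 for Mud2, and so was TUB3 with 0.08 for BBP and 0.00 for Mud2. The 9 genes of ubiquitin-like conjugation held 4 high for BBP and 1 high for Mud2, and none was shared. UBC4, for a ubiquitin-conjugating enzyme, had 0.71 for BBP and 1.45 for Mud2. Its close relative UBC5 had 0.36 for BBP and -0.06 for Mud2. UBC9, the SUMO-conjugating enzyme, was the Mud2 one, with 0.32 for BBP and 1.99 for Mud2, although its BBP percentile of 94.5 lay just below the threshold. Among 19 measured genes of vesicle traffic 7 were high for BBP and 5 for Mud2, with SFT1 and YOP1 shared. SEC17, for a protein that disassembles SNARE complexes, had 0.44 for BBP and 0.49 for Mud2, while SEC14, for a phospholipid transfer protein, had 0.28 for BBP and 2.95 for Mud2. Among 9 measured mitochondrial genes 2 were high for BBP and 1 for Mud2.

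**Figure D3:**
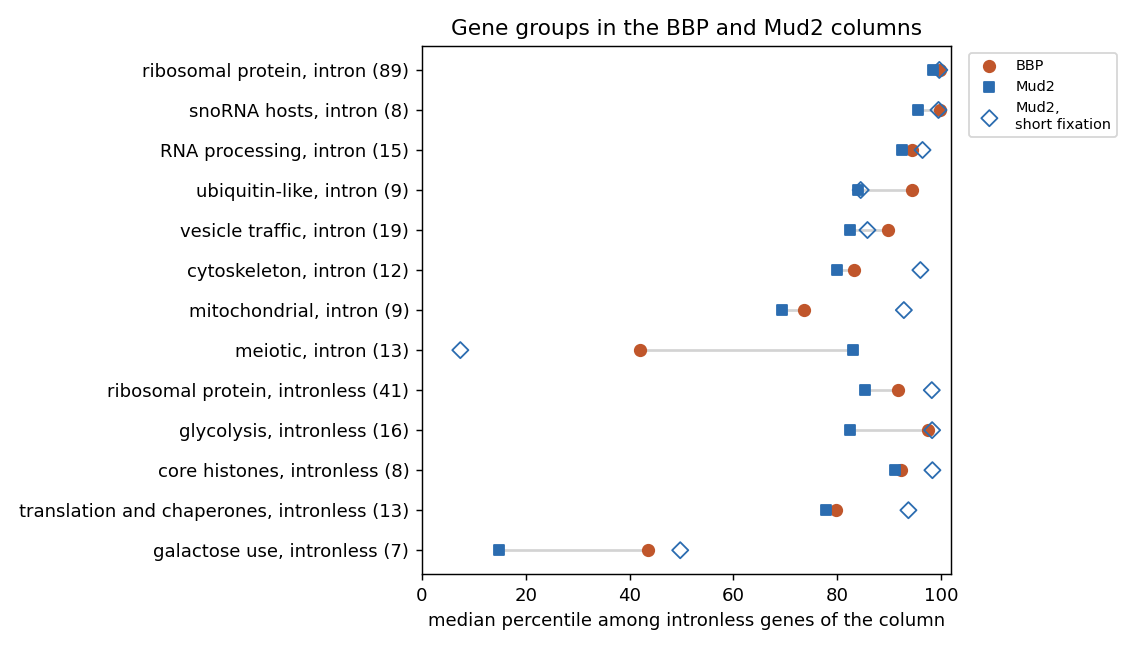
Each row is a gene group with its number of genes, and the points give the median percentile of the group for BBP, for Mud2 and for the short-fixation Mud2 column. Ribosomal protein intron genes lie at 99.8 for BBP and 98.5 for Mud2, and meiotic intron genes at 42.1 for BBP and 83.0 for Mud2. The glycolysis row, which includes the fermentation genes PDC1 and ADH1, lies at 97.4 for BBP and 82.5 for Mud2.

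Among intron genes high for BBP, the lowest Mud2 ranks after RPL40B belonged to genes that were mostly near the BBP threshold. TAF14, for a subunit shared by TFIID and chromatin remodellers, was an exception with 0.70 for BBP, percentile 99.5, and 0.10 for Mud2, percentile 64.8. APS3, for the small subunit of an adaptor complex of vesicle coats, had 0.43 for BBP and 0.10 for Mud2. VPS75, for a histone chaperone, had 0.35 for BBP and 0.15 for Mud2, and MOB1, a gene of mitotic exit, 0.35 for BBP and 0.25 for Mud2. COX5B and QCR9, for subunits of the respiratory chain, had 0.38 and 0.36 for BBP, beside 0.24 and 0.34 for Mud2. NCB2, for a repressor of transcription, and TMA20 completed the list with 0.34 each for BBP, beside 0.32 and 0.34 for Mud2. The number of the 28 genes high for BBP alone, other than ribosomal protein genes, that were high elsewhere varied by column. It was 21 in the short-fixation Mud2 column, at a median percentile of 98.2, and 26 for Prp40, in which 7.86% of all genes were high. Lea1 had 23 of them high, Prp5 20 and Prp11 14, but Spt5 had 6 and RNA polymerase II 5. Against BBP, the short-fixation Mud2 column left 12 intron genes high in BBP alone, in place of 33.

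The intron genes high for Mud2 and lowest for BBP were a mixed set. IST1, which acts with the machinery that sorts endosomal cargo, had -0.24 for BBP, percentile 12.4, and 2.81 for Mud2, percentile 99.6. QCR10, for a subunit of the cytochrome bc1 complex, had -0.14 for BBP and 3.42 for Mud2, and CGI121, for a protein of a tRNA-modifying complex, -0.11 for BBP and 2.56 for Mud2. MEI4, needed for meiotic recombination, had -0.12 for BBP and 2.25 for Mud2. The uncharacterised ECM9 had -0.01 for BBP and 2.70 for Mud2, but it lies on the chromosome arm YKR, where Mud2 values are uncertain. MAF1, for a repressor of RNA polymerase III, had 0.12 for BBP and 2.25 for Mud2, and GLC7, for a protein phosphatase catalytic subunit, 0.13 for BBP and 2.51 for Mud2. ERD2, for the receptor that retrieves proteins to the endoplasmic reticulum, had 0.17 for BBP and 1.99 for Mud2, and IWR1, needed for nuclear import of RNA polymerase II, 0.19 for BBP and 2.20 for Mud2. LSM2, above, was the tenth gene. The 13 genes of this class were less evenly high elsewhere. QCR10 stood at percentile 99.4 in the short-fixation Mud2 column and ERD2 at 95.7, but CGI121 stood at 46.0 and MEI4 at 5.58. That column had 3 of the 13 high, at a median percentile of 80.5, and Prp40 had 8 of the 13 high. Whether the classes differ in this was not tested.

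Intron genes of meiosis are barely transcribed in vegetative cells. Their group median lay below the intronless median for BBP and above it for Mud2, though single genes lay on both sides in each column. None of 13 was high for BBP and only MEI4 was high for Mud2. Their median log2 ratio was -0.05 for BBP and 0.59 for Mud2, at a median percentile of 42.1 for BBP and 83.0 for Mud2, and 10 of the 13 had the higher percentile for Mud2. SPO1, for a protein of sporulation, stood at percentile 58.0 for BBP and 94.5 for Mud2, and GMC2, of the synaptonemal complex, at 19.9 for BBP and 86.2 for Mud2. DMC1, the meiotic recombinase, was low in both with log2 ratios of -0.11 for BBP and -0.51 for Mud2. Beside these values, the median percentile of the same genes was 7.39 in the short-fixation Mud2 column and 14.4 for RNA polymerase II. The place of meiotic genes in the Mud2 profile was thus not seen in the short-fixation column.

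Intronless ribosomal protein genes were high more often than the intronless background but less often than those with an intron. Of 41 genes 19 were high for BBP and 8 for Mud2, and all of these 8 were shared. The shared genes were RPL24A and RPL24B, RPS8A and RPS8B, RPS22A, RPS25B, RPS29B and RPS31. RPL24A, the highest shared intronless gene, lies next to a ribosomal protein intron gene and had 1.45 for BBP and 2.55 for Mud2. RPL24B had 1.25 for BBP and 2.13 for Mud2. RPS29B had 1.40 for BBP and 1.99 for Mud2, and RPS25B had 1.35 for BBP and 2.10 for Mud2. RPS8B had 1.32 for BBP and 2.10 for Mud2, and RPS8A 0.85 for BBP and 2.19 for Mud2. RPS22A had 0.57 for BBP and 1.81 for Mud2. Its coding sequence is nearly that of the intron gene RPS22B, and it also lies next to a ribosomal protein intron gene. The BBP values of RPL24A, RPL24B, RPS29B, RPS25B and RPS8B exceed the median of 0.93 for ribosomal protein intron genes. Their Mud2 values lie on both sides of the median of 2.26. Of these genes, RPS29B stood lowest at percentiles of 99.9 for Prp40, 99.1 for Lea1, 98.3 for Prp11 and 99.4 for Prp5. The median Prp40 percentile of all 41 genes was 97.6. The intronless class rests on a list written from memory. RPS25A and RPS29A, in doubt and in neither class, had 1.13 and 1.18 for BBP, beside 1.92 and 1.82 for Mud2. Whether RPL24A, RPL24B, RPS29B, RPS25B and RPS8B lack an intron was not tested. The large-subunit genes RPL3 and RPL10 were high for BBP alone, RPL3 with 0.45 for BBP and 0.84 for Mud2, RPL10 with 0.40 for BBP and 1.12 for Mud2. RPL4A and RPL12A were high in neither, RPL4A with 0.02 for BBP and 0.23 for Mud2, RPL12A with 0.11 for BBP and 0.30 for Mud2. The median RNA polymerase II percentile was 93.7 for intronless and 90.8 for intron-bearing ribosomal protein genes.

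Genes of glycolysis, counted together with the fermentation genes PDC1 and ADH1, divided the partners. They are intronless and strongly transcribed. Of 16 genes 9 were high for BBP and 0 for Mud2. FBA1, for aldolase, had 0.86 for BBP and 1.12 for Mud2, at percentile 99.7 for BBP and 91.7 for Mud2. TPI1, for triose phosphate isomerase, had 0.68 for BBP and -0.29 for Mud2. GPM1, for phosphoglycerate mutase, had 0.62 for BBP and -0.10 for Mud2, and PDC1, for pyruvate decarboxylase, 0.63 for BBP and 0.67 for Mud2. PGK1 had 0.58 for BBP and 0.52 for Mud2, TDH3 0.58 for BBP and 0.79 for Mud2, and ADH1 0.65 for BBP and 0.60 for Mud2. The BBP percentile was the higher one in 15 of the 16 genes and the scaled BBP value in 14. In the short-fixation Mud2 column, however, 15 of the 16 were high, at a median percentile of 98.3. In the Mud2 profile their median percentile was 82.5, above the intronless median, so they missed the threshold there without being low. RNA polymerase II placed the same genes at a median percentile of 96.0.

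Core histone genes held 2 of 8 high for BBP and 3 for Mud2, with HTB2 shared at 0.37 for BBP and 1.70 for Mud2. HHF1 was high for BBP alone with 0.49 for BBP and 1.46 for Mud2, and HHF2 for Mud2 alone with 0.18 for BBP and 1.84 for Mud2. These encode the same histone H4, and their spots can share DNA. Of 13 genes of translation factors and chaperones 1 was high for each protein, TEF2 for BBP with 0.55 for BBP and 1.23 for Mud2, and HSC82 for Mud2 with 0.31 for BBP and 1.70 for Mud2. Genes of galactose use had a median log2 ratio of -0.04 for BBP and -0.76 for Mud2. They lay near the intronless median for BBP, at a median percentile of 43.6, and low for Mud2, at 14.9. Their median RNA polymerase II percentile was 4.47. GAL1 had -0.04 for BBP and -0.97 for Mud2. The regulator GAL4 was the single one of 7 that was high, with 0.45 for BBP and -0.71 for Mud2. Unlike the group's median, GAL4 stood at percentile 99.5 for RNA polymerase II, and it stood at 29.2 for Prp40.

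Outside those lists, DSE1, a gene of daughter cells, had 0.60 for BBP and 3.56 for Mud2, and MRH1, for a plasma membrane protein, 1.05 for BBP and 2.20 for Mud2. CNM1, which lies next to an intron gene, had 0.48 for BBP and 2.14 for Mud2. These 3 genes and RPL24A and RPS8A were the 5 highest shared intronless genes by the lower of both ranks. One-sided intronless genes also reached high values. The 4 copies of ASP3, for cell wall asparaginase, took 4 of the 5 top places by BBP value among intronless genes below the Mud2 median of that class. ASP3-3 had 2.71 for BBP and -0.64 for Mud2, ASP3-1 had 1.83 for BBP and -0.64 for Mud2, ASP3-4 had 1.56 for BBP and -0.74 for Mud2, and ASP3-2 had 1.15 for BBP and -0.64 for Mud2. The copies are near-identical neighbours, so they count as 1 observation, and in the short-fixation Mud2 column they stood between percentiles 22.2 and 27.1. RPL8B, with 0.77 for BBP and -0.56 for Mud2, was the fifth by that rule, and it lies on YLL, where Mud2 values are uncertain too. On the Mud2 side RPA34, for a subunit of RNA polymerase I, had -0.12 for BBP and 3.58 for Mud2. DXO1, for a decapping nuclease, had -0.13 for BBP and 3.33 for Mud2, and NCS2, which acts in tRNA thiolation, -0.03 for BBP and 2.96 for Mud2. MEU1, of methionine salvage, had -0.27 for BBP and 2.88 for Mud2, and JLP2 had -0.20 for BBP and 2.81 for Mud2. None of these 5 was high in the short-fixation Mud2 column, where RPA34 was the highest at percentile 67.3 and DXO1 the lowest at 0.03. In the Mud2 column from extract treated with RNase, DXO1 stood at 99.7, so its short-fixation value is uncertain.

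Several columns that the classes did not use placed the one-sided intronless genes at different ranks, and others placed them alike. The 223 genes high for BBP alone had a median percentile of 89.5 in the short-fixation Mud2 column, 83.2 for Prp40, 83.6 for Prp5, 89.6 for the elongation factor Spt5 and 83.8 for RNA polymerase II. The 228 genes high for Mud2 alone had 39.7 in the short-fixation Mud2 column, 47.4 for Prp40, 28.4 for Prp5, 59.3 for Spt5 and 47.7 for RNA polymerase II. In the short-fixation Mud2 column 88 of the 223 were high, against 1 of the 228, and 18 of the 41 shared genes. The RNA polymerase II value therefore moved with the BBP class, and its part in the BBP values was not tested. In columns looked at after these values were seen, Prp2 and Sub2 placed both one-sided classes alike, Prp2 at median percentiles of 80.8 for BBP alone and 84.1 for Mud2 alone, and Sub2 at 55.3 for BBP alone and 50.9 for Mud2 alone. For Brr2 the median percentile was 74.2 for BBP alone, 16.8 for Mud2 alone and 57.9 for the shared genes. For Prp40 under 6-azauracil it was 58.5 for BBP alone, 10.1 for Mud2 alone and 16.3 for the shared genes. The 13 intron genes high for Mud2 alone had 16.8 for Prp40 under 6-azauracil, 6.78 for Brr2 and 87.7 for Prp2.

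**Figure D4:**
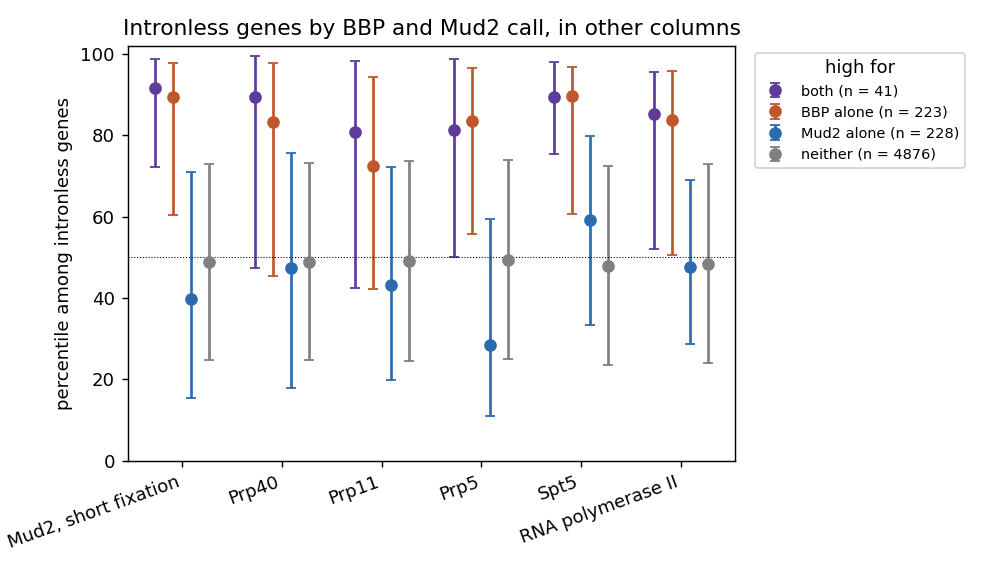
Points give the median percentile, and bars the range between the quartiles, of intronless genes high for both proteins (41), BBP alone (223), Mud2 alone (228) and neither (4876) in 6 columns that did not define the classes. Genes of BBP alone lie at 89.5 in the short-fixation Mud2 column and at 83.8 for RNA polymerase II, while genes of Mud2 alone lie at 39.7 and 47.7.

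The columns could also be compared through their rank correlations across intronless genes. Over 5368 genes Spearman's rho was 0.39 for BBP with the Mud2 profile, 0.33 for BBP with the short-fixation Mud2 column, and 0.15 between the 2 Mud2 columns. The Mud2 profile thus ran closer to BBP than to the other column of the same protein on these genes. Over the 140 other intron genes the values were 0.45, 0.67 and 0.38 in the same order, and over the 89 ribosomal protein intron genes 0.51, 0.59 and 0.55. With RNA polymerase II the intronless genes had a rho of 0.15 for BBP, 0.09 for the Mud2 profile and 0.51 for the short-fixation Mud2 column.

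Some intronless genes lie next to an intron gene and could share fragments with it. A neighbour with an intron was found for 7 of 41 intronless genes high in both (17.1%), 15 of 223 high in BBP alone (6.73%) and 24 of 228 high in Mud2 alone (10.5%), against 364 of 4876 high in neither (7.47%). A ribosomal protein intron gene was the neighbour for 4 (9.76%), 10 (4.48%) and 9 (3.95%) of them, in that order. Among the genes in neither it was 125 (2.56%), a lower share than in each high class. Most intronless genes of every class, high or not, had no neighbour with an intron, and whether fragments were shared was not tested.

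On 2 chromosome arms the Mud2 profile ran less closely with BBP than on most others, and Lea1 ran less closely with Prp40. On most chromosome arms, named here by the start of the systematic gene name, BBP and Mud2 ran together, with a median rho of 0.45 across the genes of an arm and a range of 0.12 to 0.67 over 30 arms. On YKR (101 genes) rho was 0.18, within that range, and on YLL (59 genes) -0.03, below it. These 2 arms were picked out after their values were seen, and they follow each other in the usual order of yeast gene names. Between the 2 Mud2 columns rho ranged from -0.06 to 0.44 on the other 30 arms. It was -0.01 on YKR, within that range, and -0.16 on YLL, below it. Lea1 with Prp40 had -0.14 and -0.06, below the median of 0.34 on the other arms. Their range of -0.16 to 0.51 has its low end at YIR, an arm of 41 genes. BBP with the short-fixation Mud2 column had 0.32 and 0.47, within its range of 0.14 to 0.54. Among genes above the 98th percentile for both Prp40 and the short-fixation Mud2 column, the Mud2 profile was below its intronless median in 4 of 7 on these arms, against 1 of 157 elsewhere. BBP was below its median in 0 of the 7, against 2 of the 157. Of the same 7, Lea1 placed UTH1 at percentile 6.07, RPS21A at 15.3, PTR2 at 16.9 and RPL8B at 27.6. It placed RPL40B at 65.9, SSA2 at 86.8 and COF1 at 92.6. RPL40B and RPS21A, high for BBP alone, lie on YKR, and RPL8B lies on YLL. ECM9, high for Mud2 alone, lies on YKR, and COF1, high in both, lies on YLL. UBI4, the polyubiquitin gene, chosen after its values were seen, lies on YLL too and had 0.50 for BBP and -1.64 for Mud2, with percentile 97.7 in the short-fixation Mud2 column. Without the 2 arms 92 intron genes were high in both, 31 in BBP alone and 12 in Mud2 alone, so the main counts hardly rest on them. Whether the Mud2 values on these arms stand beside the right genes was not tested. Mud2 values there, high or low, may therefore not be those of the named gene. Among them are those of RPL40B, RPS21A, RPL8B, UBI4, ECM9 and COF1.

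**Figure D5:**
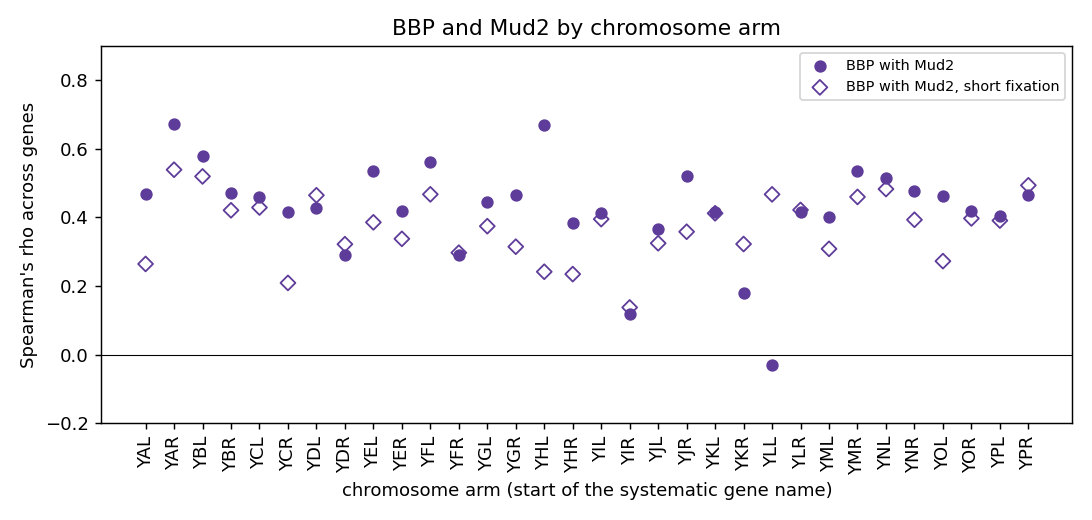
For each chromosome arm, in the order of systematic gene names, the points give Spearman's rho across its genes for BBP with the Mud2 profile (filled) and for BBP with the short-fixation Mud2 column (open). YKR at 0.18 and YLL at -0.03 lie low for the Mud2 profile, but at 0.32 and 0.47 for the other column.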

How the data were processed

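The deposited values are log2 ratios of the 2 channels per probe, combined over replicates by the authors. Per the labels' protocols, DNA of each immunoprecipitate (Cy5) and of its whole-cell extract (Cy3) was amplified through linkers before labelling, and 1 replicate or more had the dyes exchanged. Neither normalisation nor the direction of the ratio is given in the sources used here. The Mud2 column lies on a grid of linear ratios in steps of 0.01 for 99.1% of its values, the highest ratios left out. It had 524 distinct values against 4085 for BBP. The Lea1 column shares this grid for 99.8% of its values, again with the highest ratios left out, and had 279 distinct values.

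Of 6284 probes 5707 matched RefSeq locus tags (assembly R64), and 5674 nuclear genes were used. No exons were given, so intron genes come from a list of 254 genes written from memory, 231 of them measured. RPS25A, RPS29A and RPL29 were in doubt and placed in neither class. The members and lists were chosen with earlier results of these data known. Percentiles count ties as 0.5, scaled values use 1.4826 times the median absolute deviation of intronless genes, and no test was made.

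Named genes are the 10 intron genes highest in both, the 10 leaning furthest to each side among high genes, the 5 highest of each column, the 5 intronless genes highest in both and on each side, those nearest each threshold, list members, MSL5 and MUD2. A gene that this rule takes is not reported here. Software was Python 3.11.15 with pandas 2.3.3, NumPy 2.4.6 and SciPy 1.17.1.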

Additional observations from a re-analysis of the deposited data

How the results depend on the processing

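With single combined columns, the arrays' small number limits every value and no replicate could be left out. No paired analysis was possible because each column already combines its replicates. Of 78 recomputed values 51 kept their direction and stayed within 1.5 times of those reported, 22 moved further and 5 reversed. The 51 include 8 that could not change, from leaving out values at the scale limit. Intronless values under changed intron lists were identical too. Median differences of scaled values, in robust SDs, were counted against percentiles, an unlike unit, so these counts overstate what was checked. The cause was not tested except where a changed threshold or fewer genes sets it. With the 99th percentile as threshold, 33 intron genes were high in both, 59 in BBP alone, and 2 intronless genes in both. With the 90th, 137 intronless genes were high in both. With scaled values above 3 the numbers were 16 intron genes in BBP alone, 20 in Mud2 alone and 14 intronless genes in both. The median difference of other intron genes (BBP minus Mud2) was then -0.15 robust SDs. Ranks among genes of similar RNA polymerase II value gave median differences of -0.36 for ribosomal protein and 0.30 for other intron genes. The short-fixation Mud2 column gave 12 intron genes in BBP alone, 106 intronless genes in both, and differences of 0.056 for ribosomal protein and -1.17 for other intron genes. Turning the Mud2 sign gave 0 intron genes in both, 126 in BBP alone, 2 in Mud2 alone and 4 intronless genes in both, differences of 98.1 for ribosomal protein and 54.9 for other intron genes, and a rho of -0.71 over intron and -0.39 over intronless genes. With only the listed genes whose span is not a multiple of 3, 55 intron genes were high in both. Among genes above the median of RNA polymerase II, 16 intron genes were high in BBP alone and 21 intronless genes in both, with differences of 0.53 for ribosomal protein and 0.84 for other intron genes. Leaving out values at the scale limit changed nothing, since no gene reached it in either column. Leaving out YKR and YLL, or adding the doubted genes, both chosen after seeing the data, kept all 8 values within 1.5 times.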

Other observations

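A control spot named for Arabidopsis, which belongs to no yeast gene, had a log2 ratio of 1.49 for BBP and -0.86 for Mud2. It stood at 1.64 in the short-fixation Mud2 column and at 2.03 for Prp40, and no explanation was tested.

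SAR1, for the GTPase that starts transport vesicles at the endoplasmic reticulum, had -0.71 for BBP, at percentile 1.30, and 1.12 for Mud2, at percentile 91.7. PSP2, REC102 and TMH18 lay lower for BBP, in order with -0.85, -0.78 and -0.91 for BBP, beside -0.34, -0.67 and -0.29 for Mud2. These 4 intron genes were chosen after their values were seen. RPP2A, an intronless gene for a ribosomal stalk protein, was lower still with -1.24 for BBP and 0.21 for Mud2, although it stood at percentile 98.9 in the short-fixation Mud2 column and at 92.5 for RNA polymerase II.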
